A study of Homo sapiens with 8 samples.

Results

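The α- and β-tubulin genes of HEK293T cells were followed in cells with and without XRN1. The genes were chosen by name and not by their values, as TUBA1A, TUBA1B, TUBA1C, TUBA4A, TUBB, TUBB2A, TUBB2B, TUBB3, TUBB4B and TUBB6. All 10 were rows of the count table, 4 of them α- and 6 of them β-tubulins, of 10105 genes in all. HEK293T is a human embryonic kidney line that carries the SV40 large T antigen. Counts covered mRNA (RNA-Seq) and ribosome-protected fragments (RPFs, from Ribo-Seq) of WT and of XRN1-null HEK293T cells. Either assay had 2 replicates of both genotypes, which makes 8 libraries. Cells of both lines grew for 24 h on dishes of 15 cm and were then harvested, with no drug named in the labels. The XRN1-null cells were made by gene editing, are named as 1 line with no count of clones in the sources used here, and had no rescued line among the libraries, so differences between the genotypes cannot be told apart from differences between the 2 lines.

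Tubulin α and β form the heterodimer from which microtubules are built, and each is encoded by several genes, the isotypes. Cells adjust tubulin synthesis to the amount of free dimer through the mRNA. When soluble tubulin is in excess, TTC5 binds the first residues of the nascent chain as it leaves the ribosome (methionine, arginine and glutamate, followed by cysteine in α- and isoleucine in β-tubulin), and SCAPER links TTC5 to the CCR4-NOT deadenylase, so that the mRNA is degraded while it is being translated. Once the cap of such an mRNA is gone, XRN1 can digest the body from the 5′ end in the cytoplasm. The comparison of WT with XRN1-null cells therefore asks how the level and the ribosome occupancy of these mRNAs stand without the enzyme. The libraries hold steady-state levels and no decay rates. By the paper's account, the RNA-Seq selected RNA with a poly(A) tail. The paper proposes that uncapped fragments keeping this tail build up in XRN1-null cells and are sequenced without being translated. Counts of mRNA cannot tell such fragments from intact mRNA, so a rise in mRNA need not be one of intact mRNA. The same limit holds for footprints relative to mRNA. The part of such fragments was not tested.

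The stretch of mRNA that encodes the recognized residues is given for each gene, because it shows both what the isotypes have in common and how alike some of them are to a mapped read. These are the first 30 bases of the coding sequence, 5′ to 3′ on the coding strand, from GENCODE release 44 transcripts on GRCh37. The capitals mark the first 4 codons.
TUBA1A: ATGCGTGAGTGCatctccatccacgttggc
TUBA1B: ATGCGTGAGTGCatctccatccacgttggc
TUBA1C: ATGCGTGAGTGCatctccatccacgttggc
TUBA4A: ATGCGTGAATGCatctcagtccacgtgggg
TUBB: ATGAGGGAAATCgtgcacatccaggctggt
TUBB2A: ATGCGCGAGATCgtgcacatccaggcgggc
TUBB2B: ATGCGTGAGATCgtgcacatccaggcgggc
TUBB3: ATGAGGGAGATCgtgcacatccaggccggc
TUBB4B: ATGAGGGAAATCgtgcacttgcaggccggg
TUBB6: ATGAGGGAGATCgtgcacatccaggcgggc
TUBA1A, TUBA1B and TUBA1C were identical over all 30 bases, and TUBA4A was not. Among the β-tubulins the 12 capitals were the same in TUBB and TUBB4B, and the same in TUBB3 and TUBB6.

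A footprint from these stretches, of 29 or 30 nt in the Ribo-Seq libraries, cannot always be given to 1 gene. Each coding sequence was therefore cut into all its windows of 29 nt, and each window was searched in the genome and in the transcripts of other genes. The coding sequences of TUBA1A, TUBA1B and TUBA1C were 96.3% to 97.3% identical to each other, and 74.6%, 87.4% and 74.8% of their windows also occurred outside the gene. TUBB2A and TUBB2B were 98.2% identical, with 84.6% and 82.3% of their windows shared. TUBB shared 59.4% of its windows, most of them with the pseudogene TUBBP1, which alone held 49.4%. The other members were more distinct, with 29.3% shared in TUBB3, 26.9% in TUBB4B, 22.04% in TUBA4A and 12.2% in TUBB6. In 6 of the 10 genes more than 50% of the windows were shared. How the counting treated reads that fit several places is not given in the sources used here, so single values of TUBA1A, TUBA1B, TUBA1C, TUBB2A and TUBB2B, and the footprints of TUBB, are uncertain.

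The genes lie at several loci of GRCh37, each with 4 exons in the reference transcript. TUBA1B (chr12:49521565-49525180, minus strand), TUBA1A (chr12:49578469-49582863, minus strand) and TUBA1C (chr12:49582519-49668383, plus strand) form a cluster, in which the annotated ends of TUBA1A and TUBA1C overlap on opposite strands. TUBA4A is at chr2:220114432-220142624 on the minus strand, where TUBA4B and STK16 lie on the other strand. TUBB2A (chr6:3153731-3157778) and TUBB2B (chr6:3223558-3231964) are neighbors on the minus strand, and TUBB lies apart at chr6:30685212-30693315 on the plus strand. TUBB3 (chr16:89987800-90005169, plus strand) overlaps the readthrough gene ENSG00000198211 on the same strand. TUBB4B is at chr9:140135739-140138159 and TUBB6 at chr18:12307668-12344319, both on the plus strand. The strand setting of the counting is not given in the sources used here, so reads of genes that overlap cannot be told apart.

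Total counts per library were 33757487 to 38145433 in RNA-Seq and 1921641 to 4399542 in Ribo-Seq, with WT Ribo-Seq replicate 1 the shallowest. The replicates are labeled as separate samples of each genotype, and every pair differed beyond counting noise, with a chi-square per degree of freedom from 2.01 in XRN1-null Ribo-Seq to 24 in WT RNA-Seq. XRN1 itself, the targeted gene, had 1187 and 1084 mRNA counts in WT against 10655 and 9834 in XRN1-null cells (log2 fold change 3.01 ± 0.08 SE). The edit is a small deletion that shifts the reading frame, so the mRNA level does not check the label. The study also reports a retained intron in the XRN1 transcripts of the null cells, and accumulation of XRN1 mRNA that cannot be translated. Its footprints were at 66 and 217 counts in WT against 91 and 59 in XRN1-null cells, which is 34.4 and 49.9 CPM (counts scaled to a common library total) against 22.6 and 18.4. The change in footprints relative to mRNA was -4.09 ± 0.22. Footprints were thus the lower measure in the cells labeled XRN1-null, in CPM and relative to mRNA, and the change in footprints alone missed the threshold used for the tubulins (-1.08 ± 0.20, false discovery rate 0.00641, edgeR). Of 6 genes listed for HEK293T cells, 5 were in the table (VIM, KRT8, KRT18, NEFL and NEFM) and PAX2 was not. In mRNA KRT18 was called higher in XRN1-null cells (0.49, FDR 0.0013, edgeR) and NEFM lower (-0.59, FDR 0.00455). The other 3 were not called, and 22.9% of all genes were called higher and 23.2% lower. None of 6 markers of leukocytes, hepatocytes, fibroblasts, endothelium and erythroid cells was in the table, which holds only genes above an expression floor.

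Levels are compared between genes as RPKM (CPM per kilobase), with the gene widths given in the table. In WT mRNA, TUBA1B was the highest at 1003 ± 101 RPKM (SD, n = 2), followed by TUBB, the most widely used β isotype, at 616 ± 99.1. TUBB4B, a broadly expressed β isotype, came next at 270.1 ± 49.8, and TUBA1C at 246 ± 21.9. The replicates of TUBB4B and TUBA1C overlapped, so their order was not resolved. The isotypes best known from neurons were among the lower ones. TUBA1A was at 41.1 ± 7.47 RPKM, and overlapped TUBB6 at 37.8 ± 4.43. TUBB2B at 21.5 ± 2.202 overlapped TUBB2A at 19.6 ± 3.06. TUBB3, used as a marker of neurons, was at 8.02 ± 1.30 and TUBA4A was last at 3.81 ± 0.21. TUBA1B thus ranked 68 of all 10105 genes by mRNA per length and TUBA4A ranked 9096. Every member was at 3.66 RPKM or more in each library, above the table's floor of 2 FPKM, so none was in the table through 1 genotype alone.

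Footprints gave another order. TUBA1B led again in WT, at 2325 ± 182 RPKM, but TUBA1C at 1471 ± 117 and TUBA1A at 1190 ± 94.2 came before TUBB at 802 ± 152. TUBA1A moved from place 5 among the 10 genes in mRNA to place 3 in footprints. TUBB4B followed at 477 ± 95.8. TUBB2A at 164 ± 25.9 and TUBB2B at 146 ± 22.8 overlapped. TUBB3 at 85.0 ± 20.3, TUBB6 at 48.9 ± 3.23 and TUBA4A at 13.9 ± 0.56 closed the list. In XRN1-null cells the order of footprints was the same, and in mRNA TUBA4A (12.9 ± 0.69 RPKM) stood above TUBB3 (4.37 ± 0.24), the reverse of WT. No neighbors overlapped in XRN1-null cells.

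**Figure D1:**
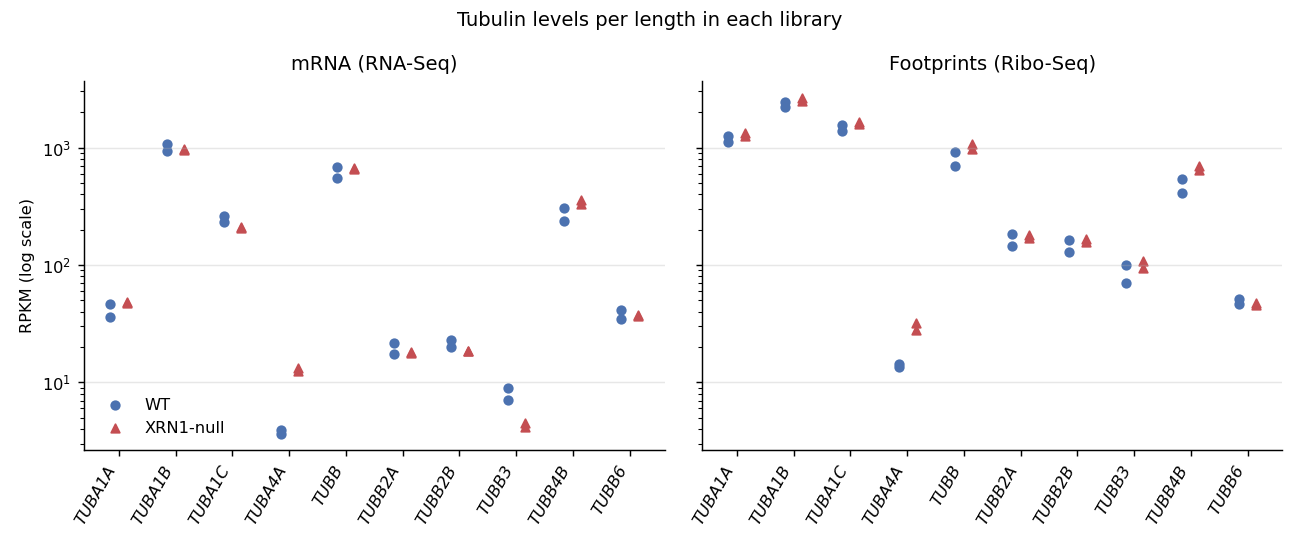
Level per length (RPKM, log axis) of each tubulin in every library, mRNA on the left and footprints on the right, with WT as circles and XRN1-null as triangles (2 replicates each). TUBA4A is the gene whose XRN1-null points lie clearly above WT in both panels, and TUBB3 is the one whose XRN1-null mRNA lies clearly below WT while its footprints overlap.

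The ratio of footprint to mRNA CPM (translation efficiency, TE) was above the median of all genes for all 10 members in both genotypes. The median gene had a log2 ratio of -0.29 in WT and -0.32 in XRN1-null cells. In WT, TUBB6 and TUBB were lowest, at a ratio of 1.29 and 1.30, which is still at percentile 81.3 and 81.6 of all genes. TUBB4B stood at 1.76, TUBA1B at 2.32 and TUBA4A at 3.51. TUBA1C (5.98), TUBB2B (6.71), TUBB2A (8.26), TUBB3 (10.2) and TUBA1A (29) were in the top 1% of all genes. The highest member was 22.4-fold above the lowest in WT and 21.6-fold in XRN1-null cells.

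The large ratios sat mostly, but not only, with shared sequence, and shared sequence did not always come with a large ratio. TUBA1B, with the most windows shared (87.4%), had a WT ratio of 2.32, and TUBB (59.4%) had 1.30. Both were below TUBA4A, at 3.51 with 22.04% shared. TUBA1A footprint counts were 70.4% to 72.4% of those of TUBA1B in the 4 Ribo-Seq libraries, against 5.43% to 7.23% in the 4 RNA-Seq libraries. They were 92.7% to 94.5% of those of TUBA1C, against 18.1% to 27.4% in RNA-Seq. TUBB2A footprint counts were 94.1% to 97.6% of those of TUBB2B, against 76.0% to 86.4% in RNA-Seq. In each of these 3 pairs the counts were nearer to even in footprints than in mRNA. TUBB3, with 29.3% of its windows shared, also had a high ratio, and 18.3% of its windows occurred in TUBB2A and in TUBB2B. The part that shared reads play in these ratios was not tested.

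**Figure D2:**
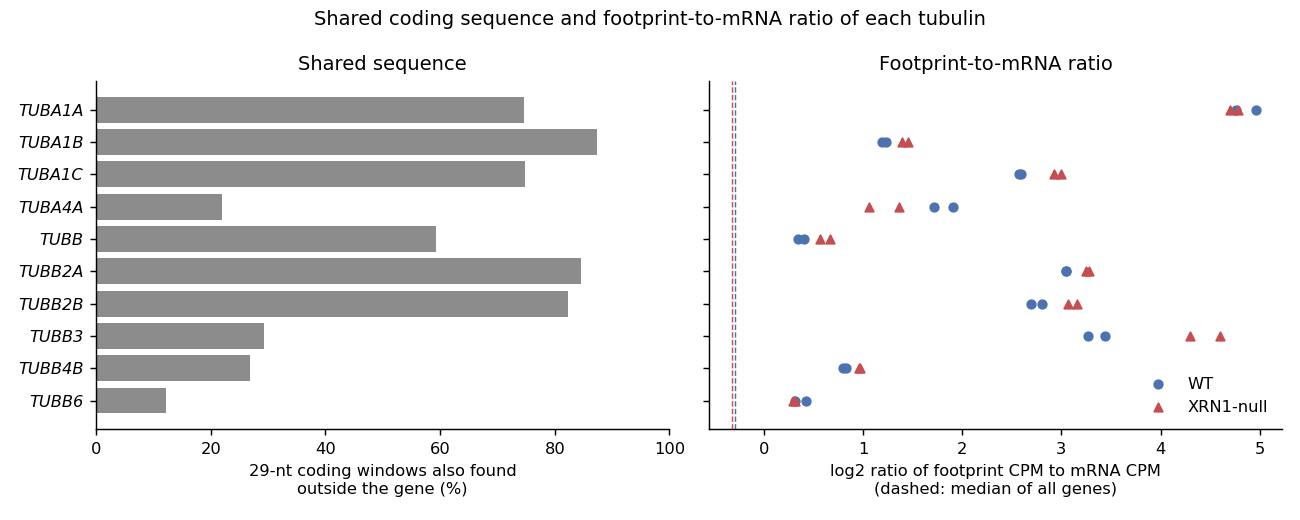
Left, share of each tubulin's 29-nt coding windows that also occur outside the gene (%); right, log2 ratio of footprint to mRNA CPM in each replicate (circles WT, triangles XRN1-null; dashed lines, median of all genes). TUBA1A, TUBA1B, TUBA1C, TUBB2A and TUBB2B share 74.6% to 87.4% of their windows, and every tubulin lies to the right of the median gene.

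In XRN1-null cells 2 of the 10 tubulin mRNAs passed the threshold, in opposite directions. TUBA4A, an α isotype that was the least expressed in WT, rose 3.38-fold. TUBB3 fell 1.83-fold. The other 8 were not called, with fold changes between 0.845 and 1.28. A gene was called when the edgeR quasi-likelihood test gave a false discovery rate (FDR, Benjamini-Hochberg over all 10105 genes) below 0.005. With 1 of 10 members higher and 1 lower, the tubulins compare with 22.9% of all genes called higher and 23.2% called lower. The median log2 fold change of the members was -0.04, against -0.01 over all genes. In these bulk samples, fewer cells of a kind and less RNA per cell cannot be told apart.

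TUBA4A mRNA was at 336 and 337 counts in WT RNA-Seq against 1309 and 1249 in XRN1-null RNA-Seq, or 9.49 and 10.3 against 34.6 and 32.1 CPM. The XRN1-null libraries were both far above WT, and the gap was many times the spread within each genotype. The log2 fold change was 1.76 ± 0.09 (SE; FDR 8.92e-06, edgeR). It stayed between 1.70 and 1.81 when each RNA-Seq library in turn was left out. Its rank by mRNA per length rose from 9096 to 5875 of 10105 genes. TUBA4B, on the other strand of the locus, shares 19.0% of the TUBA4A coding windows.

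TUBB3 mRNA was at 505 and 589 counts in WT and at 345 and 328 in XRN1-null cells. In CPM, WT had 14.3 and 17.9 and XRN1-null 9.12 and 8.43, and the genotypes did not overlap. The log2 fold change was -0.87 ± 0.13 (FDR 0.000791, edgeR), between -1.01 and -0.70 without any 1 library.

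The abundant isotypes had small differences. TUBA1B, the main α-tubulin, was at 1632 and 1882 CPM in WT and at 1664 and 1695 in XRN1-null cells, the latter within the WT range (-0.07 ± 0.08, FDR 0.475). TUBB had 1702 and 2139 CPM in WT, against 2045 and 2081 in XRN1-null cells, again within the WT range (0.10 ± 0.10, FDR 0.392). The 95% confidence intervals were -0.24 to 0.11 for TUBA1B and -0.13 to 0.34 for TUBB on the log2 scale.

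TUBB4B had 374 and 486 CPM in WT, against 526 and 574 in XRN1-null cells, with no overlap (0.36 ± 0.12, FDR 0.0299). TUBA1C went the other way, with 488 and 554 CPM in WT, against 439 and 442 in XRN1-null cells (-0.24 ± 0.08, FDR 0.0227). TUBB2B had 40.2 and 46.5 CPM in WT against 36.98 and 37.07 in XRN1-null cells (-0.23 ± 0.08, FDR 0.0445). These 3 genes did not overlap between the genotypes but missed the threshold. The share of all genes without overlap was not counted, here or for footprints, so a lack of overlap adds no support to the test. With each RNA-Seq library left out, changes ran from 0.20 to 0.56 in TUBB4B and -0.31 to -0.15 in TUBA1C. In TUBB2B they ran from -0.31 to -0.12. TUBA1A had 88.6 and 114.7 CPM in WT, against 120.3 and 118.2 in XRN1-null cells (0.23 ± 0.11, FDR 0.107), with no overlap. Its change was 0.08 without WT RNA-Seq replicate 1 and 0.43 without WT RNA-Seq replicate 2. TUBB2A, at 30.5 and 38.1 against 31.0 and 32.0 CPM (-0.12 ± 0.11, FDR 0.35), and TUBB6, at 114.8 and 135.6 against 121.8 and 124.9 CPM (-0.02 ± 0.09, FDR 0.843), lay within the WT range.

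The WT replicates differed from each other in these genes. All 10 members were higher in WT RNA-Seq replicate 2 than in replicate 1, by a log2 ratio of 0.11 to 0.38 (median 0.28), while 49.9% of all genes were. In XRN1-null RNA-Seq 7 of 10 were higher in replicate 2, with a median of 0.02. Without WT RNA-Seq replicate 1, 2 members were called higher (TUBA4A and TUBB4B) and 5 lower (TUBA1B, TUBA1C, TUBB2A, TUBB2B and TUBB3), against 31.6% and 30.8% of all genes. Without WT RNA-Seq replicate 2, 4 were called higher (TUBA1A, TUBA4A, TUBB and TUBB4B) and 2 lower (TUBA1C and TUBB3), against 33.7% and 33.5% of all genes. The median change of the members was -0.13 in the first case and 0.07 in the second. TUBA4A and TUBB3 kept their calls in either case.

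Footprints of TUBA4A rose 2.18-fold in XRN1-null cells, and no other member was called. That is 1 of 10 members higher and 0 lower, against 0.633% of all genes called higher and 1.14% lower. In footprints 3 members had an unadjusted p under 0.05 (TUBA4A, TUBB4B and TUBB), as had 33% of all genes. The fitted change was positive for 9 of the 10 members, with a median of 0.14 against -0.0033 over all genes. Without WT Ribo-Seq replicate 1 it was positive for 7, with a median of 0.05, and without WT Ribo-Seq replicate 2 for 9, with a median of 0.30. TUBA1A, TUBA1B and TUBA1C, with most of their coding windows shared, were among these 9.

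TUBA4A footprints were at 71 and 152 counts in WT and at 293 and 267 in XRN1-null cells. As CPM, these were 36.98 and 34.92 in WT, against 72.8 and 83.3 in XRN1-null cells, without overlap. The log2 fold change was 1.12 ± 0.15 (FDR 0.00195, edgeR), and 1.02 to 1.22 with each Ribo-Seq library left out.

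TUBB4B footprints were at 651 and 866 CPM in WT and at 1031 and 1114 in XRN1-null cells (0.50 ± 0.15, FDR 0.0423). TUBB footprints were at 2166 and 2835 CPM in WT and at 3031 and 3310 in XRN1-null cells (0.34 ± 0.14, FDR 0.107). Neither gene overlapped between the genotypes, and both missed the threshold. Without WT Ribo-Seq replicate 1, TUBB4B was called too (0.31), and 5.82% of all genes were called higher. Without WT Ribo-Seq replicate 2, TUBB (0.56), TUBB3 (0.52) and TUBB4B (0.73) were called, which makes 4 members higher with TUBA4A, against 12.7% of all genes. In WT Ribo-Seq, 9 of the 10 members were higher in replicate 2 than in replicate 1, by a median of 0.24, against 49.6% of all genes. In XRN1-null Ribo-Seq all 10 were higher in replicate 2, by a median of 0.09, against 52.1% of all genes.

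No fall in TUBB3 footprints was detected beside the fall in its mRNA. They were at 141.7 and 199 CPM in WT and at 189 and 215 in XRN1-null cells, so the genotypes overlapped (0.23 ± 0.17, FDR 0.369). The 95% interval of the change was -0.14 to 0.60.

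The 3 near-identical α-tubulins had almost the same change in footprints, at 0.12 ± 0.11 for TUBA1A, 0.15 ± 0.11 for TUBA1B and 0.14 ± 0.11 for TUBA1C. Each was a little above both WT libraries in both XRN1-null libraries, and none was called. Changes ran from 0.04 to 0.21 in TUBA1A, 0.07 to 0.24 in TUBA1B and 0.06 to 0.23 in TUBA1C with each Ribo-Seq library left out. TUBB2A (0.09 ± 0.15), TUBB2B (0.13 ± 0.15) and TUBB6 (-0.09 ± 0.14) overlapped between the genotypes.

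**Figure D3:**
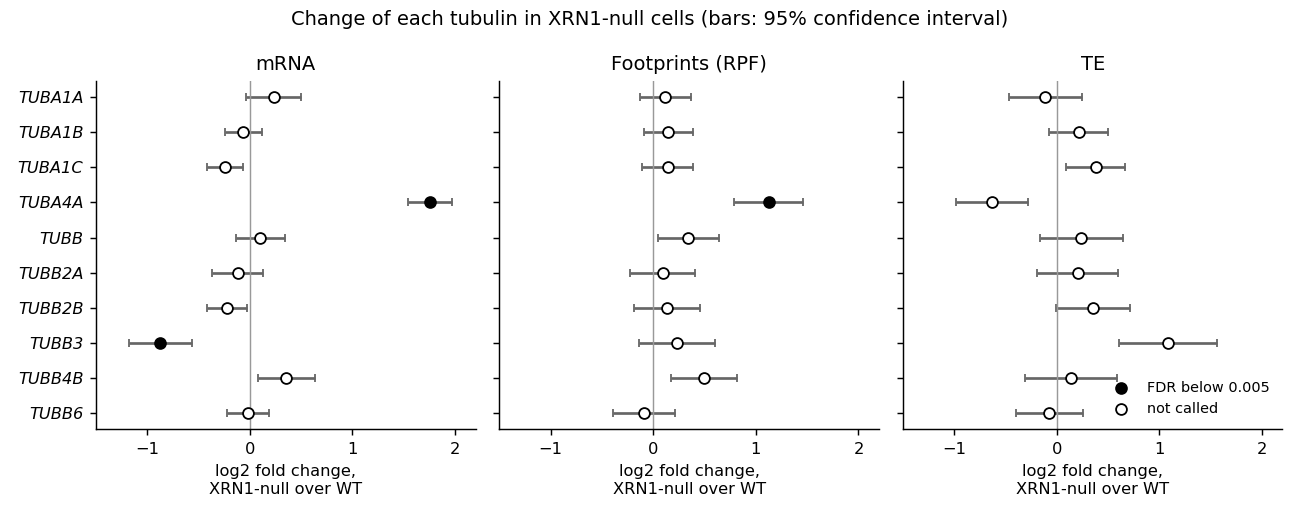
Log2 fold change of each tubulin, XRN1-null over WT, in mRNA, footprints and TE (points, edgeR fit; bars, 95% confidence interval; filled points, FDR below 0.005). TUBA4A is filled in mRNA (1.76) and footprints (1.12), TUBB3 is filled in mRNA (-0.87), and no point is filled in TE.

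The change in TE was the interaction term of genotype with assay in a fit over all 8 libraries. None of the 10 members was called in either direction, against 0.0495% of all genes called higher and 1.78% called lower, and 3 had an unadjusted p under 0.05 (TUBB3, TUBA4A and TUBA1C), as had 23.3% of all genes. TUBB3 had the largest difference. Its log2 ratio of footprints to mRNA was 3.27 and 3.44 in WT, against 4.30 and 4.59 in XRN1-null cells, with no overlap, and the change was 1.09 ± 0.22 (FDR 0.0107, edgeR). Some other settings called it, among them DESeq2 (FDR 0.00226) and the fit without WT Ribo-Seq replicate 2. With each library left out in turn its FDR ran from 0.00185 to 0.0738 and its change from 0.90 to 1.39. The ratio went from 10.2 to 21.8.

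TUBA4A went the other way. Its log2 ratio was 1.91 and 1.72 in WT, against 1.06 and 1.36 in XRN1-null cells, a change of -0.63 ± 0.16 (FDR 0.0343), since its mRNA differed 3.38-fold and its footprints 2.18-fold. It remained at percentile 96.4 of all genes by TE in XRN1-null cells, from 98.4 in WT. TUBA1C had log2 ratios of 2.59 and 2.57 in WT, against 2.93 and 2.99 in XRN1-null cells (0.38 ± 0.13, FDR 0.106). The remaining 7 members had changes between -0.11 (TUBA1A) and 0.35 (TUBB2B).

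Levels were also summed over near-identical copies, which removes how reads were split within a sum. Reads dropped, counted more than once or shared with genes outside a sum still affect it, and TUBAP2 held 44.9% of the coding windows of TUBA1B and TUBB2BP1 35.4% of those of TUBB2A. TUBA1A, TUBA1B and TUBA1C together had 2209 and 2551 mRNA CPM in WT, against 2223 and 2255 in XRN1-null cells, the latter within the WT range. Their footprints came to 9567 and 10700 CPM in WT, against 10850 and 11430 in XRN1-null cells, a ratio of 1.10. TUBB2A and TUBB2B together had 70.7 and 84.6 mRNA CPM in WT, against 68.0 and 69.1 in XRN1-null cells. Their footprints were at 517 and 646 CPM in WT, against 614 and 648 in XRN1-null cells, which overlap. The ratios of the mRNA sums were 0.941 and 0.883, and no sum was tested.

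Over the whole set, mRNA came to 4959 ± 658 CPM in WT and 5086 ± 82.2 in XRN1-null cells, with overlapping libraries. Footprints came to 14340 ± 1567 CPM in WT and 16440 ± 722 in XRN1-null cells, or 1.32% and 1.53% of all footprint counts in WT Ribo-Seq against 1.62% and 1.69% in XRN1-null Ribo-Seq. The β members together stood at 3630 and 4717 footprint CPM in WT and at 5014 and 5444 in XRN1-null cells. The α members stood at 9604 and 10730 against 10920 and 11510. In footprints, both XRN1-null libraries thus lay above both WT libraries for each sum, and WT replicate 2 lay nearer to them than WT replicate 1.

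Isotype shares are given per length within the α and within the β members. TUBA1B made up 77.5% ± 0.01 of α-tubulin mRNA per length in WT and 78.1% ± 0.25 in XRN1-null cells. TUBA1C accounted for 19.0% ± 0.23 and 16.9% ± 0.10, and TUBA1A for 3.16% ± 0.26 and 3.92% ± 0.09. TUBA4A went from 0.30% ± 0.01 to 1.05% ± 0.07, so it remained a minor part of the α pool. In footprints TUBA1A had 23.8% in WT and 23.4% in XRN1-null cells, for a gene with 74.6% of its coding windows shared. Among β-tubulin mRNAs, TUBB had 63.3% ± 0.22 in WT and 61.0% ± 0.95 in XRN1-null cells. TUBB4B had 27.7% ± 0.57 and 31.8% ± 1.08 of mRNA, and 27.6% ± 0.44 and 31.0% ± 0.06 of footprints, so its share differed between the genotypes and hardly between the assays. From counts not divided by width, these shares were 16.7% and 19.5% of mRNA and 18.2% and 20.5% of footprints. The widths run from 1591 to 3309 nt among the β members, while their coding sequences, where footprints fall, run from 1332 to 1350 nt. TUBB3 went from 0.82% to 0.40% of β mRNA, and from 4.91% ± 0.27 to 4.63% ± 0.16 of β footprints.

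The machinery that senses tubulin was measured in the same libraries. Of 14 listed autoregulation factors 13 were in the table, and 4 were higher and 2 lower in mRNA, against 22.9% and 23.2% of all genes. TTC5, which reads the nascent chain, was at 29.8 and 28.9 CPM in WT, against 20.6 and 23.2 in XRN1-null cells (-0.42 ± 0.09, FDR 0.00344). SCAPER, its link to the deadenylase, was at 16.2 CPM in both WT libraries and at 35.7 and 35.1 in XRN1-null cells (1.13 ± 0.08, FDR 2.15e-05). CNOT11, the CCR4-NOT subunit that SCAPER contacts, was lower (-0.33 ± 0.07, FDR 0.00294), and CNOT2, CNOT4 and CNOT10 were the other genes called, all higher. The numbers of these factors called higher and called lower both rose with either WT RNA-Seq library left out. Both fell with either XRN1-null RNA-Seq library left out, where neither TTC5 nor CNOT11 kept its call. With all libraries, none of the 13 was called in footprints (all genes, 0.633% higher and 1.14% lower) or in TE (0.0495% and 1.78%). An unadjusted p under 0.05 was reached by 4 in footprints and 3 in TE, against 33% and 23.3% of all genes. The absence of calls did not hold in footprints with either WT Ribo-Seq library left out. In TE it did not hold without WT Ribo-Seq replicate 1. SCAPER footprints were at 8.86 and 13.1 CPM in WT, against 18.4 and 23.4 in XRN1-null cells (0.83 ± 0.24, FDR 0.0379). TTC5 footprints overlapped between the genotypes (-0.13 ± 0.18, FDR 0.653).

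Of the genes that fold tubulin, all 21 were in the table. In mRNA 1 was called higher, 9 lower and 11 neither, against 22.9% and 23.2% of all genes called higher and lower, and the median was -0.23 against -0.01 over all genes. TBCA, which binds β-tubulin during dimer assembly, fell by 0.76 on the log2 scale (FDR 6.98e-05) and PFDN4, a subunit of the prefoldin complex that hands new chains to the chaperonin, fell by 0.67 (FDR 0.000601). TBCE, which binds α-tubulin, rose by 0.65 (FDR 0.000235). By complex, a split made after the values were seen, the lower genes were 5 of 6 prefoldin subunits (PFDN2, PFDN4, PFDN5, PFDN6 and VBP1), 3 of 7 cofactors (TBCA, TBCB and ARL2) and 1 of 8 chaperonin subunits (TCP1). With each RNA-Seq library left out, the median of the 21 genes ran from -0.28 to -0.12, and the number called lower also moved. With all libraries, no folding gene was called in footprints or TE. An unadjusted p under 0.05 was reached by 3 and 9 of the 21, against 33% and 23.3% of all genes. The absence of calls did not hold in footprints with either WT Ribo-Seq library left out. In TE it did not hold without WT RNA-Seq replicate 2.

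Of 22 other tubulin and γ-tubulin ring genes 15 were in the table, with 5 higher and 2 lower in mRNA, against 22.9% and 23.2% of all genes. These counts moved with single RNA-Seq libraries left out, while the median change of 0.16 ran from 0.13 to 0.17. TUBA8, another α isotype, was at 2.60 and 2.80 CPM in WT, against 9.91 and 9.20 in XRN1-null cells (1.82 ± 0.13, FDR 3.04e-05), and TUBG2, a γ-tubulin, was at 11.2 and 11.9 against 32.7 and 32.4 (1.49 ± 0.08, FDR 1.1e-05). Footprints did not follow in either gene, at -0.01 ± 0.27 for TUBA8 and 0.02 ± 0.14 for TUBG2. TUBG2 was the gene of this list that was called in TE, at -1.46 ± 0.14 (FDR 0.000123), and TUBA8 just missed the threshold (-1.84 ± 0.34, FDR 0.00657). TUBA8 overlaps a same-strand readthrough gene. Its mRNA was at 1.22 and 1.32 RPKM in WT, under the table's floor of 2 FPKM, and at 4.67 and 4.33 in XRN1-null cells. In RNA-Seq it thus stood above the floor only in the genotype where it was high, which limits its mRNA and TE changes. MZT2A and MZT2B, close copies that encode a small protein of the γ-tubulin ring, were lower in mRNA (-0.55 and -0.67) and in footprints (-0.95, FDR 0.00348, and -0.86, FDR 0.00454), where neither was called with either XRN1-null Ribo-Seq library left out. TUBGCP4, TUBGCP6 and NEDD1 were the other genes called higher.

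The enzymes that modify tubulin had 12 of 20 genes in the table, 5 higher and 2 lower in mRNA (against 22.9% and 23.2% of all genes) and none called in footprints or TE (3 and 4 at an unadjusted p under 0.05, against 33% and 23.3% of all genes). The glutamylases TTLL7 (1.16 ± 0.09) and TTLL5 (1.08 ± 0.06) rose most, SVBP, the partner of the detyrosinating vasohibins, fell by 0.68 and the deglutamylase AGBL5 fell by 0.34. TTLL4, HDAC6 and AGTPBP1 were the other genes higher. Of 26 regulators of microtubule dynamics 24 were in the table, with 9 higher and 3 lower in mRNA, against 22.9% and 23.2% of all genes. CLASP1, which stabilizes plus ends, rose by 1.73 ± 0.10 and the depolymerizing kinesin KIF2C by 1.14 ± 0.10. STMN3, of the tubulin-binding stathmins, fell by 1.33 in mRNA (FDR 3.04e-05) and by 1.89 in footprints (FDR 0.00193), and was the gene of this list called in footprints. The end-binding MAPRE1 fell by 0.36 in mRNA. In footprints the list had a median of 0.32 against -0.0033 over all genes, with 20 of 24 fitted above 0 (49.6% of all genes) and 12 at an unadjusted p under 0.05 (33%). The median was 0.22 without WT Ribo-Seq replicate 1 and 0.42 without WT Ribo-Seq replicate 2, with 19 of 24 above 0 in each. The list then had 5 and 10 genes called higher, against 5.82% and 12.7% of all genes and 0 of 24 with all libraries. None of the 24 was called in TE, with 4 at an unadjusted p under 0.05 (23.3% of all genes).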

How the data were processed

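The deposited table held raw read counts per gene for each library. The authors removed rRNA reads with Bowtie2, mapped the rest to hg19 with TopHat2, kept footprints of 29 and 30 nt, counted them per gene with QuasR and kept genes above an FPKM floor, which leaves no record of genes below it. Versions, annotation, strand and multi-mapping settings are not given in the sources used here. The other deposited tables hold the authors' own comparisons (fold changes, p-values, TE) and were not used.

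Libraries were grouped by their labels. Counts of all 10105 genes were tested with edgeR 4.0.16 (quasi-likelihood, TMM within each assay, Benjamini-Hochberg over all genes, FDR below 0.005) in R 4.3.3, for RNA-Seq and Ribo-Seq apart and, for TE, as the interaction term of genotype with assay, in place of the RiboDiff test of the study. CPM and RPKM were computed here on TMM-scaled totals with the table's widths, and log2 ratios of CPM used an offset of 0.5 CPM. Summed levels and shares had no test. The scripts were tested on simulated data. Coding windows came from GENCODE 44 on GRCh37 with Biopython 1.88. Alternatives were RLE scaling, library totals, a block, a minimum of 10 counts, DESeq2 1.42.0, an FDR of 0.05, a gene-width offset, each library left out and, chosen after seeing the data, a GC offset. All members are named, with XRN1, TTC5, SCAPER and CNOT11, and in each other list up to 2 genes with the largest rise and 2 with the largest fall among those called; other names were chosen after their values were seen. Of these, 1 gene is counted but not reported here by name. The members and lists were chosen with earlier results of these data known. Protein sequences were not used here. Intervals cover the spread between these replicates, and p-values rest on 2 libraries per group.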

Additional observations from a re-analysis of the deposited data

Results flagged for a closer look

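TUBA1C had fitted changes of opposite sign in mRNA and footprints, and neither was called (FDR 0.0227 and 0.42, edgeR). Its mRNA was lower in both XRN1-null libraries than in both WT libraries (log2 fold change -0.2425), and its footprints were higher in both (0.1388). The difference between the assays, tested as the interaction, was 0.38 ± 0.13 with an FDR of 0.106 (edgeR), so it did not pass the threshold. It passed with the replicate block by culture (0.38, FDR 0.00325, edgeR), though nothing says that replicate numbers mark a shared culture. Of the 29-nt coding windows of TUBA1C, 74.8% also occur elsewhere, and the part of shared reads in its footprints was not tested.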

How the results depend on the processing

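TUBA4A stayed called higher in mRNA and footprints, and TUBB3 lower in mRNA, under every alternative run. Other counts moved. Members called higher in mRNA numbered 2 with the replicate block, DESeq2 and an FDR of 0.05 (TUBB4B added), against 28.3%, 26.6% and 32.8% of all genes, and members lower numbered 3 at an FDR of 0.05, against 34.2%. Members higher in footprints numbered 2 with the replicate block and at an FDR of 0.05 (6.1% and 7.07% of all genes). In TE, 1 was higher with the replicate block, DESeq2 and an FDR of 0.05 (TUBB3), against 0.0693%, 0.0693% and 1.02% of all genes. With the replicate block by culture 2 were higher (TUBB3 and TUBA1C), against 0.544%. At an FDR of 0.05, 1 was lower (TUBA4A), against 6.46%. With each library left out, counts ranged from 1 to 4 (mRNA higher), 1 to 5 (mRNA lower), 1 to 4 (footprints higher) and 0 to 1 (TE higher). The shares of all genes called moved with the same libraries, so these ranges alone do not set the tubulins apart from other genes. A lone library in a group is assumed to vary like the others.

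Only small changes turned sign. In mRNA these were TUBB6 with library totals (0.0361) and TUBA1B (0.07) and TUBB2A (0.0144) with the width offset; with the GC offset TUBB6 turned in footprints (0.002) and TE (0.0324). With libraries left out, mRNA changes ran from -0.032 to 0.2755 in TUBB, -0.1442 to 0.0398 in TUBA1B, -0.2523 to 0.0451 in TUBB2A and -0.1156 to 0.1016 in TUBB6. Footprint changes ran from -0.053 to 0.2773 in TUBB2A and -0.0108 to 0.3165 in TUBB2B. TE changes ran from -0.3092 to 0.0419 in TUBA1A, -0.1942 to 0.0231 in TUBB6 and -0.0604 to 0.3767 in TUBB4B. The cause was not tested. XRN1 footprints missed the threshold (FDR 0.00641) and passed it with library totals, the width or GC offset, the block and an FDR of 0.05, and without WT or XRN1-null Ribo-Seq replicate 1.

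Over all genes, footprint calls went from 64 higher and 115 lower to 133 and 164 with library totals, 100 and 154 with the width offset, 616 and 665 with the replicate block and 714 and 847 at an FDR of 0.05. TE calls went from 5 and 180 to 55 and 435 with the culture block, 7 and 322 with DESeq2, 8 and 154 with the width offset and 103 and 653 at an FDR of 0.05. Without XRN1-null RNA-Seq replicate 1 or 2, mRNA calls went from 2313 higher and 2344 lower to 1632 and 1113 or 1652 and 1097. Without 1 library, footprint calls reached 1282 and 1087 (WT Ribo-Seq replicate 2) and TE calls fell to 0 and 19 (XRN1-null Ribo-Seq replicate 1). Replicate numbers are shared between groups, but nothing says that they mark a shared culture; same-numbered libraries deviated together by correlations of 0.19 (mRNA), 0.0803 (footprints) and 0.0766 (TE), and there are only 2 pairs. Shares from counts not divided by width differed, since the genes differ in width.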

Other observations

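The cytosolic chaperonin, which folds both tubulins and actin, shared the gap between the WT replicates. All 8 of its genes (TCP1, CCT2, CCT3, CCT4, CCT5, CCT6A, CCT7 and CCT8) were higher in WT RNA-Seq replicate 2 than in replicate 1, by a median log2 ratio of 0.21 (0.04 to 0.27), and all 8 were higher in WT Ribo-Seq replicate 2, by a median of 0.26 (0.12 to 0.34). Of the 6 prefoldin genes, 1 was higher in WT RNA-Seq replicate 2, and of the 7 cofactor genes, 5 were. In XRN1-null cells the median gap of the chaperonin genes was 0.04 for mRNA, with all 8 again higher in replicate 2, and 0.0002 for footprints, with 4 of 8 higher. The split of the folding genes by complex was made after the values were seen, and the source of the gap was not tested.

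TUBB4A, a β isotype outside the 10 genes, was at 39.7 and 47.7 mRNA CPM in WT, against 49.4 and 51.3 in XRN1-null cells (0.21 ± 0.09, FDR 0.0827, edgeR), and its TE change was 0.04 ± 0.17. The pseudogene TUBBP5 was called higher in mRNA (0.38 ± 0.08, FDR 0.00411) and shares 10.9% of the coding windows of TUBB4B. TUBD1 footprints were at 159.4 CPM in WT Ribo-Seq replicate 1 and at 57.2 in replicate 2, against 46.7 and 46.2 in XRN1-null cells, so its fitted change of -1.14 rests on 1 library.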
